A study of Mus musculus with 6 samples.

Results

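The transcription factor p53, encoded by Trp53, and 9 of its regulators and direct targets were followed in N2a cells after knockdown of the circular RNA circRtn4. The 10 genes were taken by name from the table of gene levels, which lists 54532 genes, and all 10 were found once. They are Trp53, its inhibitors Mdm2 and Mdm4, its upstream activator Cdkn2a, the growth-arrest targets Cdkn1a and Ccng1, the cell death targets Bax, Bbc3 and Trp53inp1, and the Akt inhibitor Phlda3. N2a (Neuro2A) is an established cell line from a mouse neuroblastoma, for which the labels give the strain C57BL/6. RNA was sequenced from 3 libraries of cells given the control siRNA si-NC and from 3 libraries of cells given si-circRtn4, a single siRNA against the back-splice junction of circRtn4. The labels name only growth medium with serum, whereas the general methods of the study add retinoic acid after transfection, so it cannot be told whether the cells were differentiated. Nothing in the labels says that the 3 libraries of a group came from separate cultures, and p-values therefore measure only the spread between these libraries, which may be technical.

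In unstressed cells p53 is made continuously and destroyed continuously, because the ubiquitin ligase Mdm2 marks it for the proteasome and its relative Mdm4 covers its activation domain. DNA damage, oncogene activity or stress of the ribosome interrupts this, and p53 then binds DNA as a tetramer and switches on genes that stop the cell cycle, repair DNA or kill the cell. Mdm2 is itself a target of p53, which closes a feedback loop. Much of this control acts on the p53 protein, so that the level of Trp53 mRNA is a poor guide to p53 activity and its targets are commonly read instead. Neuroblastomas commonly keep an intact p53 gene.

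p53 acts through a DNA element of 2 decamers, each with a core of C and G around a pair of A or T bases, and the promoters of the 10 genes were searched for it. RefSeq promoter windows of 300 bases, 250 before and 50 after an annotated start site (GRCm38.p6), were given for 9 of the 10 genes, all but Trp53inp1. A perfect p53 decamer, which reads the same on both strands in its consensus, stood in a window of 5 of these 9 genes. Counted by window, 5 of 14 windows of the members held one, against 8.36% of all 32851 windows in the table. A single decamer is only part of the element. These 5 stretches are shown because each holds a perfect decamer, with that decamer in capitals and the gene's own strand 5′ to 3′:
Bax, chr7:45467080-45467109, minus strand: agcatatcccAGGCAAGCTTtgaacttgcg
Mdm2, chr10:117710925-117710954, minus strand: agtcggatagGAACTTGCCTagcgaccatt
Ccng1, chr11:40755452-40755481, minus strand: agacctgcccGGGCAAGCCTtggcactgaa
Trp53, chr11:69580274-69580303, plus strand: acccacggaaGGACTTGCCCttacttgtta
Cdkn1a, chr17:29090918-29090947, plus strand: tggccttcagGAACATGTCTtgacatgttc

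Cdkn1a held a further decamer at -73 from its upstream start site. A tandem pair of decamers without a spacer and with at most 1 mismatch over its 20 bases was rare, standing in 29 of all windows (0.088%). Among the members it stood in Cdkn1a and in Ccng1, with 1 mismatch in each, and the pair is in capitals here:
Cdkn1a, chr17:29090923-29090952, plus strand: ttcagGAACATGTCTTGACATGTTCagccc
Ccng1, chr11:40755457-40755486, minus strand: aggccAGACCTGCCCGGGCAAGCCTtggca

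The pair in Cdkn1a begins 51 bases before the upstream start site of the gene and 2841 bases before its downstream start site. A match is a description of the letters and not of binding, and the absence of one from the windows of Mdm4, Phlda3, Bbc3 and Cdkn2a says only that these letters are not in these 300 bases. Of 45 other p53 targets listed below, 36 had windows, and 10 of these 36 genes held a decamer. By window this was 11 of 50, or 22%, against 8.36% of all windows. The share ran from 11.1% to 29.4% between the lists of targets. In the lists examined below other than p53 targets it ran from 0% to 21.4%.

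**Figure D1:**
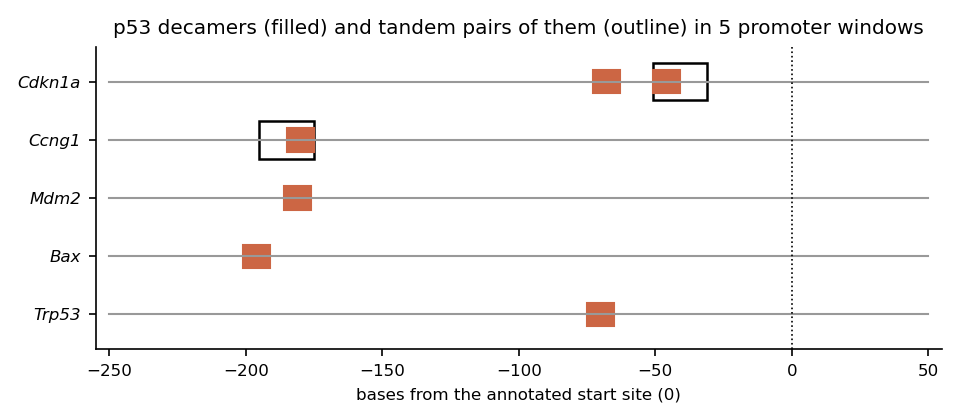
Positions of perfect p53 decamers (filled boxes) and of tandem pairs with 1 mismatch (outlines) in the RefSeq promoter windows of the 5 genes that held one, in bases from the annotated start site at 0; of the start sites of Cdkn1a, the upstream one is drawn. The first decamer lies at -201 in Bax, -186 in Mdm2, -185 in Ccng1, -75 in Trp53 and -73 in Cdkn1a, and Cdkn1a and Ccng1 carry a pair.

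FPKM is the number of fragments scaled by gene length and library depth, so that levels of different genes can be set side by side. The length used is that of all annotated exons of a gene merged, 14798 bases for Mdm4 and 1172 for Cdkn2a. The order of the genes therefore depends on the annotation as well as on the transcripts present. Between 13541198 and 15122063 reads on genes were recovered per library, and 239 to 2873 reads stood behind each member's value in each library. In the si-NC libraries Bax was the most abundant with 48.8 FPKM on average, followed by Cdkn2a with 45.8 and Trp53 with 43.8, whose ranges overlapped from neighbour to neighbour. Phlda3 came next with 30.1 FPKM, and its range lay apart from that of Trp53 above and that of Mdm2 below. Mdm2 with 20.0, Cdkn1a with 19.7 and Bbc3 with 16.9 FPKM overlapped in sequence. Mdm4 with 9.94, Ccng1 with 8.58 and Trp53inp1 with 3.20 FPKM were lowest and did not overlap. In the si-circRtn4 libraries Phlda3 stood below Cdkn1a and Mdm2, with no overlap with Mdm2.

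**Figure D2:**
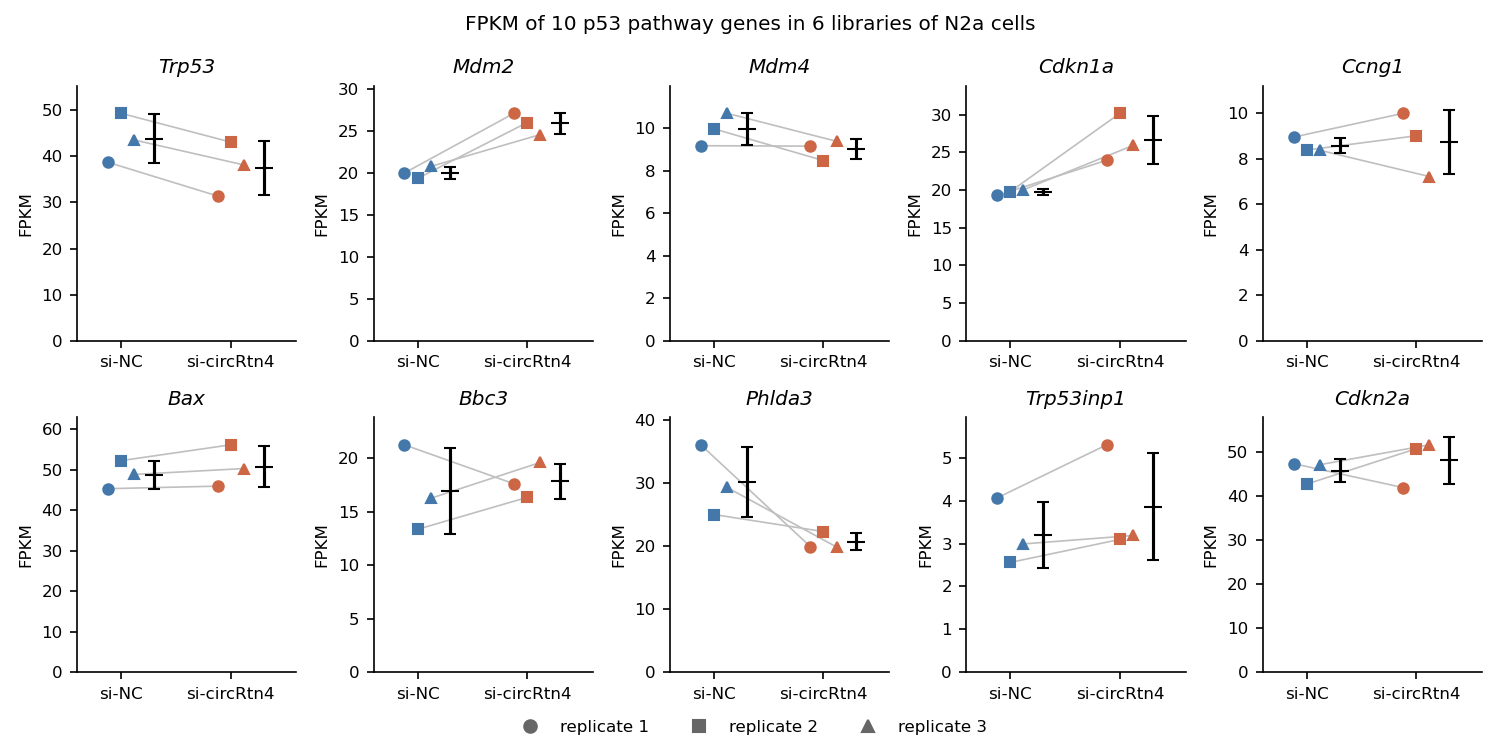
FPKM (y axes, each from 0) of the 10 genes in the si-NC libraries (blue) and the si-circRtn4 libraries (orange), with the mean and SD of 3 libraries beside the points and grey lines joining libraries with the same replicate number. The groups do not overlap for Mdm2 and Cdkn1a, which are higher with si-circRtn4, and for Phlda3, which is lower. Of all genes tested, 31.7% have groups that do not overlap, in either direction.

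Markers of neuroblastoma were detected in both groups, but several were lower with si-circRtn4. All 12 neuroblastoma and neuronal markers were above 1 FPKM in at least 1 library and 10 of them in all 6, with a summed level of 1351 to 1443 FPKM in si-NC and 876.5 to 1221 FPKM in si-circRtn4, so that their sum was lower in every si-circRtn4 library. The exceptions were Th and Dbh, which were under 1 FPKM in each si-circRtn4 library. Of the 12 markers 4 fell, none rose and 8 did not pass (limma, adjusted p under 0.05). Of all tested genes 9.19% were called, 4.36% higher and 4.82% lower. Chga, the granule protein chromogranin A, fell by 66.5% (adjusted p = 0.000641 in limma), and Dbh and Th, enzymes of catecholamine synthesis, fell by 89.9% and 72% (adjusted p = 0.00352 and 0.00553), all of them under all 13 alternatives. Phox2a, a transcription factor of these neurons, fell by 30.7% (adjusted p = 0.021 in limma). Its call was lost without si-NC replicates 1, 2 and 3 (0.0558, 0.0762 and 0.0571) or si-circRtn4 replicate 2 (0.0721), and without a filter on low values (0.0769). Mycn, the oncogene of neuroblastoma, was at 12.6, 13.5 and 15.9 FPKM in si-NC and at 18.5, 19.9 and 27.6 FPKM in si-circRtn4 (log2 difference 0.60, adjusted p = 0.0527 in limma, 0.00876 in limma-voom and 0.0068 with the replicate block). Fibroblast markers summed to 0.301 to 0.503 FPKM in si-NC and 0.509 to 0.786 in si-circRtn4 with 0 of 7 above 1 FPKM, macrophage markers to 0.912 to 1.68 and 0.901 to 1.57 with 1 of 6, and endothelial markers to 0.431 to 0.847 and 0.496 to 0.921 with 0 of 5. Thy1 and Itgam were listed at 0 throughout. Their part in the results below was not tested. In bulk RNA, fewer cells with a transcript and less transcript per cell cannot be told apart.

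Knockdown of circRtn4 was compared with the control to ask which genes change with it. Among the 10 genes, Cdkn1a rose by 35.4% and Mdm2 by 29.2%, and none of the 10 was called lower in limma without pairing, whereas limma-voom called Phlda3 lower. Trp53 itself was somewhat lower in every replicate pair, as were 28.3% of all genes tested. Without pairing its groups overlapped and it did not pass the test (adjusted p = 0.344 in limma). The other cell death and growth-arrest genes of the group, Bax, Bbc3, Trp53inp1 and Ccng1, and the activator Cdkn2a did not pass the test in either direction. At an adjusted p under 0.05 (limma on log2(FPKM + 1), Benjamini-Hochberg adjustment over 12749 genes whose mean reached 1 FPKM), 2 of the 10 genes were called, both higher, where 9.19% of all tested genes were called, 4.36% higher and 4.82% lower. With the replicate number as a block the members held 2 higher and 2 lower calls, against 9.29% and 9.75% of all genes, and limma-voom on recovered reads gave 2 higher and 1 lower, against 7.08% and 5.69%. All 10 genes passed the filter on low values. They were chosen with earlier results of these data known, so their shares of calls carry no test. Their median difference was 0.06 on the log2 scale, against 0.00197 for all tested genes.

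Trp53 (chr11:69580359-69591873, plus strand, GRCm38 as are all gene coordinates here) encodes p53. It was at 38.7, 49.3 and 43.5 FPKM in si-NC replicates 1, 2 and 3 and at 31.4, 43.0 and 38.1 FPKM in si-circRtn4 replicates 1, 2 and 3. The groups overlapped, but replicate 1 was lowest and replicate 2 highest in both, and each si-circRtn4 library lay below the si-NC library of the same number, by 0.29, 0.19 and 0.19 on the log2(FPKM + 1) scale. Without pairing, the means of 43.8 ± 5.31 and 37.5 ± 5.85 FPKM (SD, n = 3 each) differed by -0.22 (95% interval -0.53 to 0.09), which did not pass the threshold (adjusted p = 0.344 in limma). With the replicate number as a block the same difference passed it (adjusted p = 0.0417 in limma), in a fit that called 19.0% of all genes and 9.75% as lower. Being lower in all 3 pairs was shared by 28.3% of the genes tested. A processed pseudogene, Trp53-ps, was listed at 1.88 to 3.32 FPKM and can share reads with Trp53.

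Mdm2 (chr10:117688875-117710758, minus strand), the ubiquitin ligase that is both the main inhibitor and a target of p53, was at 20.0, 19.3 and 20.8 FPKM with si-NC and at 27.1, 26.0 and 24.6 FPKM with si-circRtn4. Every si-circRtn4 library lay above every si-NC library, as in either direction for 31.7% of all genes tested. Mean levels were 20.0 ± 0.716 and 25.9 ± 1.27 FPKM (SD over 3 libraries), a rise of 29.2% and a log2 difference of 0.35 (95% interval 0.19 to 0.52, adjusted p = 0.0247 in limma). Exact permutation of the libraries (two-sided) gave p = 0.1, the smallest value that 3 libraries against 3 allow. Without any 1 library the difference lay between 0.32 and 0.39. The adjusted p in limma was then 0.0465 without si-circRtn4 replicate 3. It rose above 0.05 without si-NC replicates 1, 2 and 3 (0.0529, 0.103 and 0.0579) and without si-circRtn4 replicates 1 and 2 (0.074 and 0.0803).

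Mdm4 (chr1:132959484-133030561, minus strand), the relative of Mdm2 that blocks the activation domain of p53, was at 9.17, 9.96 and 10.7 FPKM in si-NC and at 9.15, 8.47 and 9.38 FPKM in si-circRtn4. The groups overlapped. The log2 difference of -0.13 (95% interval -0.32 to 0.06) did not pass the test (adjusted p = 0.374 in limma). Within each library the ratio of Mdm2 to Mdm4 in FPKM was 2.18, 1.94 and 1.94 in si-NC and 2.96, 3.07 and 2.62 in si-circRtn4, with no overlap. The ratio of Mdm2 to Trp53 was 0.517, 0.392 and 0.477 in si-NC and 0.864, 0.604 and 0.645 in si-circRtn4, also without overlap. The ratios were chosen with the levels known and carry no test, and their size depends on the gene lengths used.

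Cdkn2a (chr4:89274471-89294653, minus strand) encodes ARF, which restrains Mdm2, and the kinase inhibitor p16 from separate start sites, and both coding transcripts are counted in one value. It was at 47.4, 42.8 and 47.2 FPKM in si-NC and at 42.0, 50.8 and 51.7 FPKM in si-circRtn4. The lowest and the highest library were both of the si-circRtn4 group, and the log2 difference was 0.07 (95% interval -0.16 to 0.30, adjusted p = 0.728 in limma).

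Cdkn1a (chr17:29090976-29100727, plus strand) encodes p21, the inhibitor of cyclin-dependent kinases through which p53 stops cells before DNA replication. Its level was 19.3, 19.8 and 20.0 FPKM with si-NC and 23.9, 30.2 and 25.9 FPKM with si-circRtn4. The si-NC libraries lay within 1 FPKM of each other, and all si-circRtn4 libraries lay above them with a wider spread. Mean levels were 19.7 ± 0.383 and 26.7 ± 3.18 FPKM (SD over 3 libraries), a rise of 35.4% and a log2 difference of 0.41 (95% interval 0.20 to 0.63, adjusted p = 0.0353 in limma), and the exact permutation test gave p = 0.1. With 1 library left out the difference lay between 0.32 and 0.48. The adjusted p in limma was then 0.0401 without si-circRtn4 replicate 1. It was 0.0791, 0.109 and 0.0863 without si-NC replicates 1, 2 and 3, 0.0838 without si-circRtn4 replicate 2 and 0.0801 without si-circRtn4 replicate 3. It was 0.0906 when all 28442 detected genes were tested. Of the exon bases of Cdkn1a, 7.68% overlap an antisense model, AC167363.2, which was listed at 0.0633 to 0.614 FPKM.

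Among the protein-coding genes most like Cdkn1a over the 6 libraries, by the root mean square difference of their centred log2(FPKM + 1) values, were D16Ertd472e (0.0458) and Pfdn1 (0.0582), where the own spread of Cdkn1a on this measure was 0.227. D16Ertd472e was at 1.801, 1.991 and 1.997 FPKM in si-NC and at 2.64, 3.22 and 2.60 FPKM in si-circRtn4. Pfdn1, a subunit of the chaperone prefoldin, was at 27.9, 30.0 and 29.4 FPKM in si-NC and at 32.8, 40.2 and 37.5 FPKM in si-circRtn4. The adjusted p in limma of these genes was 0.071 and 0.0633.

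Ccng1 (chr11:40748552-40755311, minus strand) encodes cyclin G1, a p53 target that returns p53 to control through a phosphatase acting on Mdm2. It was at 8.96, 8.39 and 8.38 FPKM in si-NC and at 10.0, 9.02 and 7.23 FPKM in si-circRtn4. The si-circRtn4 libraries lay on both sides of the control, and the log2 difference was 0.02 (95% interval -0.25 to 0.28, adjusted p = 0.951 in limma). Cdkn1a and Ccng1 both carry a tandem pair of decamers in the windows shown above. In the replicate pairs 1, 2 and 3 the log2 differences were 0.30, 0.58 and 0.36 for Cdkn1a and 0.14, 0.09 and -0.19 for Ccng1.

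Bax (chr7:45461697-45466898, minus strand), which opens the outer mitochondrial membrane in cell death, was at 45.3, 52.2 and 48.8 FPKM in si-NC and at 45.9, 56.1 and 50.3 FPKM in si-circRtn4. The libraries were ordered alike in both groups, with replicate 1 lowest and replicate 2 highest. The log2 difference was 0.05 (95% interval -0.17 to 0.28, adjusted p = 0.772 in limma). The model Gm45808, which shares 12.2% of the exon bases of Bax on the same strand, was listed at 0. Bbc3 (chr7:16308393-16318205, plus strand) encodes Puma, which frees Bax from its inhibitors, and was at 21.2, 13.4 and 16.2 FPKM in si-NC and at 17.6, 16.3 and 19.6 FPKM in si-circRtn4. The si-circRtn4 libraries lay within the range of the control, with a log2 difference of 0.09 (95% interval -0.27 to 0.45, adjusted p = 0.767 in limma). Trp53inp1 (chr4:11156431-11174379, plus strand), whose product helps p53 to activate cell death genes, was at 4.06, 2.56 and 2.99 FPKM in si-NC and at 5.30, 3.10 and 3.19 FPKM in si-circRtn4. It was higher in all 3 pairs, by 0.32, 0.20 and 0.07, as were 28.4% of the genes tested, but the groups overlapped and the difference of 0.20 (95% interval -0.27 to 0.66) did not pass the test (adjusted p = 0.591 in limma, and 0.168 with the replicate block).

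Phlda3 (chr1:135766119-135769136, plus strand), a p53 target that competes with Akt for membrane lipids and so restrains survival signalling, had values below the control. It was at 36.0, 25.0 and 29.3 FPKM in si-NC and at 19.9, 22.3 and 19.9 FPKM in si-circRtn4. The groups did not overlap, as in either direction for 31.7% of all genes tested. The control libraries were spread more widely than the si-circRtn4 libraries. The means were 20.7 ± 1.39 with si-circRtn4 and 30.1 ± 5.56 FPKM with si-NC (SD over 3 libraries), a difference of -31.3%. The log2 difference of -0.51 (95% interval -0.81 to -0.20) had an adjusted p of 0.0523 in limma and was not called, although it was the widest of the 10. It passed with the replicate block (adjusted p = 0.0447 in limma), in limma-voom on recovered reads (0.033) and without si-NC replicate 2 (0.0457), and over all alternatives the adjusted p lay between 0.033 and 0.146. The pairs differed in size, with -0.82, -0.16 and -0.54 for replicates 1, 2 and 3. The difference of Phlda3 from Cdkn1a in response was not tested.

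**Figure D3:**
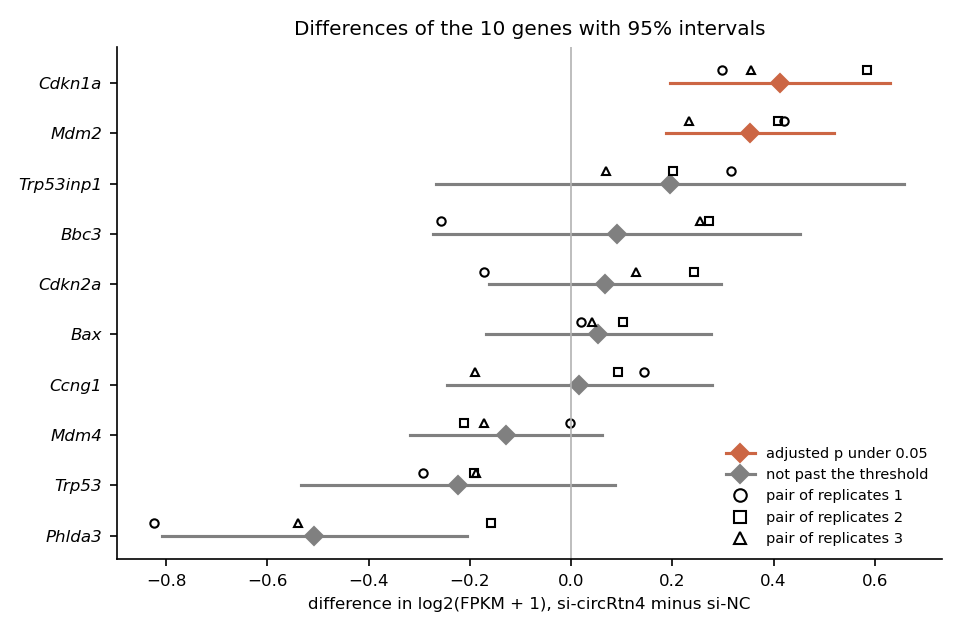
Differences in log2(FPKM + 1) between si-circRtn4 and si-NC (x axis) for the 10 genes, as diamonds with 95% intervals from limma, and the difference within each replicate pair as open symbols. The intervals of Cdkn1a, Mdm2 and Phlda3 leave out 0, and orange marks the 2 genes past the threshold on the adjusted p.

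The small RNAs of the experiment were matched to the 3′ UTRs of the 10 genes, because the study places miR-24-3p downstream of circRtn4 and because an siRNA can act on other transcripts through its seed. The sequences are shown with the seed, bases 2 to 8, in capitals. The guide is printed as the reverse complement of the strand listed for si-circRtn4, which is assumed to be the sense strand.
miR-24-3p (RefSeq, GRCm38.p6): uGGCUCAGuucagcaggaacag
si-circRtn4 guide: aAAAGGGTctcatctgaag

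A 7-base match to the miR-24-3p seed (CTGAGCC) was found in the longest annotated 3′ UTR (GENCODE M21) of 1 of the 10 genes, Bbc3, where 19.6% of 10688 tested genes with a 3′ UTR hold one. A match to the guide seed (ACCCTTT) was found in 2 of them, Mdm4 and Phlda3, against 12.5% of those genes. The 3 sites follow, with the match in capitals:
Bbc3, bases 534 to 540 of a 3′ UTR of 971 bases: agccatcttccCTGAGCCgccggcgggcg
Mdm4, bases 1777 to 1783 of 5436: tacagccttgaACCCTTTcttagtccaaa
Phlda3, bases 574 to 580 of 727: cgcccatctgtACCCTTTctttgcacact

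Bbc3, with the miR-24-3p match, was the member whose si-circRtn4 libraries lay inside the range of the control. Mdm4 and Phlda3, with the guide match, had log2 differences of -0.13 and -0.51, and none of the 3 sites is followed by the A that would make it a match of 8 bases. The part of these matches in the differences was not tested. Mdm2, Cdkn1a and Trp53 hold neither match.

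A further 45 genes known as p53 targets were examined beside the 10. Of these, 35 were tested, 4 rose, 3 fell and 28 did not pass the test, which is 20% called against 9.19% of all tested genes. Their median difference was 0.05, against 0.00197 for all tested genes. The 10 genes not tested had a mean under 1 FPKM, and Pmaip1, Rprm and Sco2 were listed at 0 in all libraries. With the replicate block, 8 were higher and 4 were lower, in a fit that called 19.0% of all genes, 9.29% higher and 9.75% lower. These genes and the lists below were chosen with earlier results of these data known, so their shares of calls carry no test.

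Among 11 tested targets of growth arrest and feedback, 2 rose, 1 fell and 8 did not pass. This is 27.3% called, against 9.19% of all tested genes. Gadd45a, which holds cells before mitosis and is also induced by the stress factor Atf4, was at 9.31, 6.09 and 9.11 FPKM in si-NC and at 19.6, 15.6 and 13.9 FPKM in si-circRtn4. Its mean rose by 100%, the widest relative rise of the genes named here, with a log2 difference of 0.93 (95% interval 0.52 to 1.33, adjusted p = 0.0196 in limma). Plk3, a kinase of the stress response, rose by 45.2%, from 18.5, 17.8 and 22.8 to 26.2, 32.5 and 27.1 FPKM (log2 difference 0.52, adjusted p = 0.0384 in limma). Btg2, which slows division and is an immediate early gene as well, fell by 35.3%, from 12.1, 9.78 and 10.9 to 7.59, 6.89 and 6.77 FPKM (log2 difference -0.56, adjusted p = 0.0135 in limma). None of these groups overlapped, as in either direction for 31.7% of all genes tested. Gadd45a lost the call without si-circRtn4 replicate 1 (adjusted p = 0.06 in limma) or si-circRtn4 replicate 2 (0.0636), and Btg2 without si-circRtn4 replicate 2 (0.0532). Plk3 lost it without every library except si-NC replicate 3, with adjusted p up to 0.128 in limma without si-NC replicate 2.

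Among 9 tested targets of cell death, 1 rose, none fell and 8 did not pass. This is 11.1% called, close to the 9.19% of all tested genes. Bid, which links death receptors to Bax, rose by 44.9%, from 7.60, 6.94 and 6.10 to 10.2, 10.7 and 8.99 FPKM (log2 difference 0.48, adjusted p = 0.028 in limma). Its groups did not overlap, as in either direction for 31.7% of all genes tested. Its call was lost without si-NC replicates 2 and 3 (adjusted p = 0.0871 and 0.0773 in limma) and without si-circRtn4 replicates 1 and 2 (0.0851 and 0.0949). With the replicate block 3 of the 9 genes were higher, in a fit that called 9.29% of all genes higher.

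Among 15 tested targets of DNA repair and metabolism, 1 rose, 2 fell and 12 did not pass. This is 20% called, against 9.19% of all tested genes. Rrm2b, the ribonucleotide reductase subunit that p53 induces for repair, rose by 76%, from 3.08, 2.91 and 3.85 to 6.73, 5.40 and 5.20 FPKM (log2 difference 0.66, adjusted p = 0.0196 in limma). Ak1, an adenylate kinase, fell by 38.5%, from 59.8, 60.0 and 61.3 to 37.0, 35.2 and 39.2 FPKM (log2 difference -0.69, adjusted p = 0.00283 in limma). Ephx1, a hydrolase of epoxides that Nrf2 also controls, fell by 37.2%, from 54.7, 41.1 and 50.2 to 29.2, 28.7 and 33.8 FPKM (log2 difference -0.65, adjusted p = 0.0182 in limma). None of these groups overlapped, as in either direction for 31.7% of all genes tested. Ak1 stayed past the threshold under all 13 alternatives (adjusted p 0.000219 to 0.0189 in limma). The call of Rrm2b was lost without si-NC replicates 1 and 2 (0.0513 and 0.0728) and without si-circRtn4 replicates 1 and 2 (0.0578 and 0.0567). That of Ephx1 was lost without si-circRtn4 replicates 1 and 2 (0.0632 and 0.0701) or si-NC replicate 3 (0.0577).

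**Figure D4:**
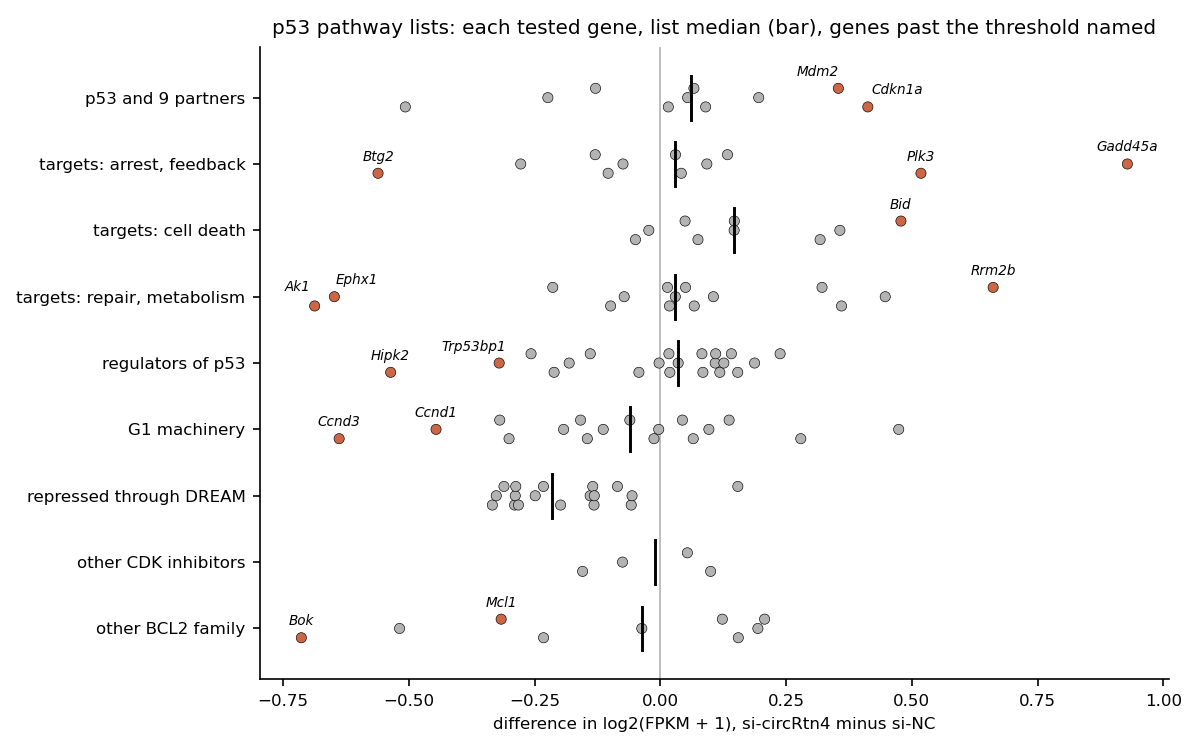
Differences in log2(FPKM + 1) between si-circRtn4 and si-NC (x axis) of each tested gene, by list (y axis), with a bar at the list's median and genes past the threshold in orange with their names. Called p53 targets lie on both sides of 0. Of the 18 genes listed as repressed through DREAM, 17 lie below 0 (14 as TPM) with none past the threshold.

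Upstream of p53, 2 of 21 tested regulators fell, none rose and 19 did not pass, which is 9.52% called and close to the 9.19% of all tested genes. Hipk2, a kinase that turns p53 towards cell death, fell by 34%, from 12.0, 12.7 and 9.51 to 8.27, 7.45 and 6.79 FPKM (log2 difference -0.54, adjusted p = 0.0326 in limma). Trp53bp1, which marks DNA breaks and binds p53, fell by 21.6%, from 11.4, 13.0 and 11.8 to 8.95, 9.67 and 9.68 FPKM (log2 difference -0.32, adjusted p = 0.0447 in limma). Trp53bp1 lost the call without any 1 library, with adjusted p of 0.0546 to 0.158, and Hipk2 without any except si-NC replicate 3, with adjusted p up to 0.109. The kinases Atm, Atr, Chek1 and Chek2, which signal DNA damage to p53, did not pass the test. The relatives Trp63, listed at 0 in all libraries, and Trp73, at 0.0127 FPKM or less, were not tested.

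Downstream of p21, 2 of 17 tested cyclins, kinases, pocket proteins and E2F factors fell, none rose and 15 did not pass, which is 11.8% called against 9.19% of all tested genes. Both were D cyclins, the partners of Cdk4. Ccnd1 fell by 26.9%, from 79.4, 81.0 and 79.9 to 57.5, 57.2 and 61.0 FPKM (log2 difference -0.45, adjusted p = 0.0097 in limma). Ccnd3 fell by 40.6%, from 8.19, 7.67 and 6.48 to 3.96, 4.92 and 4.39 FPKM (log2 difference -0.64, adjusted p = 0.0142 in limma). Without si-NC replicate 2 the adjusted p in limma was 0.0514 for Ccnd1 and 0.0593 for Ccnd3, and both stayed past the threshold without any other library. With the replicate block, which called 9.29% of all genes higher, Ccne1 and Ccne2, the cyclins of Cdk2, were called higher. Without the block their adjusted p in limma was 0.186 and 0.152, and limma-voom called neither. Both were looked at after their values had been seen.

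Of 18 genes listed as silenced by p21 through the DREAM complex, mostly genes of mitosis, 17 had a difference below 0 and 1 above it. Their median was -0.22, against 0.00197 for all tested genes. Whether p21 acted on them in these cells was not tested. As TPM, which moved the median of all genes to 0.0895, 14 were below 0 and their median was -0.14. None was called in limma, where 5 were lower and 0 higher at an unadjusted p under 0.05 (12.8% of all tested genes were lower at that level), and 1 was called lower in limma-voom. With the replicate block 7 of the 18 were lower, namely Ccnb1, Ccnb2, Cdc20, Plk1, Aurkb, Bub1b and Kif23, in a fit that called 9.75% of all genes lower. Cdc20, the activator of the anaphase-promoting complex, was at 37.4, 39.1 and 45.9 FPKM in si-NC and at 27.4, 35.6 and 33.7 FPKM in si-circRtn4 (log2 difference -0.33, adjusted p = 0.131 in limma and 0.0381 with the block). Ccnb2, a cyclin of mitosis, was at 28.2, 34.7 and 37.8 FPKM in si-NC and at 22.5, 25.6 and 31.8 FPKM in si-circRtn4 (log2 difference -0.33, adjusted p = 0.215 in limma and 0.0209 with the block). Replicate 1 was lowest of its group in both. The clamp of DNA replication, Pcna, which was singled out after its values were seen, was lowest in replicate 1 of each group too, at 42.0, 74.1 and 66.7 FPKM in si-NC and at 52.3, 75.3 and 64.6 FPKM in si-circRtn4, and did not pass the test (log2 difference 0.10, adjusted p = 0.83 in limma).

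Of the other inhibitors of cyclin-dependent kinases, 0 of 4 tested genes passed in limma, none did at an unadjusted p under 0.05, and none in limma-voom or with the block. Cdkn1b, which encodes p27, was at 36.7, 33.1 and 34.4 FPKM in si-NC and at 34.0, 27.6 and 32.0 FPKM in si-circRtn4 (log2 difference -0.15, 95% interval -0.37 to 0.06). Cdkn2d was at 29.0, 27.4 and 27.6 FPKM in si-NC and at 26.5, 30.6 and 33.5 FPKM in si-circRtn4 (log2 difference 0.10, 95% interval -0.12 to 0.32). Of 9 further tested genes of the BCL2 family, counted apart from Bax, Bbc3 and the risen Bid, 2 fell and 7 did not pass, or 22.2% called against 9.19% of all tested genes. Bok, a relative of Bax, fell by 38.9%, from 93.4, 104 and 101 to 50.4, 61.6 and 70.2 FPKM (log2 difference -0.71, adjusted p = 0.0144 in limma). Mcl1, which protects cells from death, fell by 20%, from 55.7, 56.8 and 55.8 to 44.7, 43.0 and 46.9 FPKM (log2 difference -0.32, adjusted p = 0.0298 in limma). Bok lost the call without si-NC replicate 2 (0.0598) or si-circRtn4 replicate 2 (0.0517), and Mcl1 without any 1 library (adjusted p 0.0539 to 0.116).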

How the data were processed

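The authors deposited FPKM values per gene and library with gene length and coordinates, and 6 columns of other samples were not used. The counting tool is not given in the sources used here. The submitters' processing notes list Bowtie 0.12.2 and the builds mm8 and mm9, whereas 98.1% of the 54532 genes have the coordinates of GENCODE M21 (GRCm38). FPKM multiplied by the deposited gene length, which is in other units (bases), and by 1 scale per library gave whole reads within 0.01 for 100% of values, and no 2 libraries were identical. Libraries were grouped by their titles.

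limma 3.58.1 (R 4.3.3, trended prior, no block) was applied to the deposited FPKM on the scale log2(FPKM + 1), for the 12749 genes whose mean reached 1 FPKM, and genes were called at a Benjamini-Hochberg adjusted p under 0.05. Fold changes on this scale understate those of low genes. Alternatives were a pseudocount of 0.1, no filter, TPM with and without Gm23935, median-ratio scaling, limma-voom on recovered reads, the replicate block and leaving out each library. Two-sided exact permutation tests used FPKM. In simulated libraries with 194 changed genes among 12796 tested, a fold of 2 was recovered for 91.8%, and 4.81% of calls were false. The fit with the replicate block recovered 87.6%, and 8.11% of its calls were false. The simulated libraries had a dispersion of 0.01 and no effect of the replicate number. Their fold was wider than the rises of Mdm2 and Cdkn1a, so these rates do not carry over to the calls reported here.

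Same-numbered libraries deviated together from their group means (correlations 0.331, 0.19 and 0.226), so replicate numbers were treated as pairs in a fit with a block. Other pairs lay between -0.228 and 0.00913. Deviations from a group mean cancel within each group of 3 libraries, so these lower values are no independent baseline. The pairing comes from these values and the shared numbers, and the labels do not say what a number marks.

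All 10 members were named, and of 8 further lists up to 4 called genes with the widest differences, or the 2 with the widest difference where none was called. The genes nearest to Cdkn1a were the 3 protein-coding genes with the smallest difference in pattern, of which 1 is not reported here. The members and lists were chosen with earlier results of these data known. Python 3.11.15, pandas 2.3.3, scipy 1.17.1 and matplotlib 3.10.9 were used for the other steps.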

Additional observations from a re-analysis of the deposited data

How the results depend on the processing

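The number of members called higher was 2 in all but 1 of the 7 alternatives that kept all libraries, and 1 when all 28442 detected genes were tested. With 1 library left out it lay between 0 and 1. The number called lower was 0, and it was 1 in limma-voom on recovered reads and 2 with the replicate block, and lay between 0 and 1 with 1 library left out. Of the other p53 targets, 4 were called higher, and this number was 7 as TPM, 7 in limma-voom, 8 with the replicate block and 0 without a filter on low values, and between 0 and 3 with 1 library left out. The 3 called lower became 1 to 3 with 1 library left out. Of the 27 named genes the block added 4 calls (Trp53, Phlda3, Cdc20 and Ccnb2) and changed no other call. Testing all detected genes ended 10 calls, of Cdkn1a, Gadd45a, Plk3, Bid, Rrm2b, Ephx1, Hipk2, Trp53bp1, Ccnd3 and Bok, and TPM ended 3, of Hipk2, Trp53bp1 and Mcl1. Over all genes the calls were 556 higher and 615 lower, against 210 and 261 without the filter, 1185 and 1243 with the block, 902 and 725 in limma-voom, and 163 to 407 and 217 to 419 with 1 library left out. TPM, which sets each library to the same sum, moved the median of all genes from 0.00197 to 0.0895 and the share of higher among called genes from 47.5% to 71.2%, which leaving out Gm23935 returned to 52.4%. Without Gm23935 the median as TPM was 0.0233. Gm23935 held 20.7%, 20.1% and 20.3% of the summed FPKM in si-NC replicates 1, 2 and 3. In si-circRtn4 replicates 1, 2 and 3 it held 16.7%, 18.8% and 13.5%. Why the share of Gm23935 was lower was not tested.

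Among the named genes, directions changed only with 1 library left out, in 4 members that were not called. Ccng1 lay between -0.08 and 0.13 and was negative without si-circRtn4 replicate 1 (-0.0768) or 2 (-0.0089). Bax lay between -0.02 and 0.12 and was -0.0191 without si-circRtn4 replicate 2. Bbc3 lay between -0.06 and 0.26 and was -0.0594 without si-NC replicate 2. Trp53inp1 lay between -0.01 and 0.34 and was -0.0061 without si-circRtn4 replicate 1. A pseudocount of 0.1 and median-ratio scaling changed no call of the named genes.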
